A study of Mus musculus with 18 samples.

Results

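Synapses are built from proteins with separate jobs, and 35 genes that encode them or that mark neurons were followed here, out of 46078 gene rows in each deposited table. The 35 were chosen by symbol and found through their Ensembl identifiers in the GRCm38 annotation, and all 35 had a row. They comprise 6 genes of transmitter release, 8 of the neuronal cytoskeleton and axon growth, 3 neuronal RNA-binding proteins, 4 glutamate receptor subunits, 5 postsynaptic scaffolds, 2 kinase subunits, 2 adhesion molecules, 3 genes of the transmitter GABA and 2 vesicular glutamate transporters.

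The study measured total RNA, after ribosomal RNA depletion, in female mice that lack Xist, the noncoding RNA that silences one X chromosome in female cells. The mutant group carried a homozygous Xist deletion, and the control group carried a heterozygous Xist deletion, so every animal had at least 1 deleted allele and none was wild type. Brain, spleen and liver were taken at postnatal day 1, with 2 mutant and 2 control libraries per tissue. Primary tail-tip fibroblasts, which are cells grown out of tail skin, gave 3 mutant and 3 control libraries. The labels do not say how old the fibroblast donors were, how the deletion was made or which part of the brain was taken. Each library is a biological replicate per the series description.

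At a chemical synapse, vesicles loaded with transmitter fuse with the presynaptic membrane, and receptors held in place by scaffold proteins on the facing membrane turn the transmitter into an electrical and calcium signal. In the newborn mouse brain most synapses have yet to form, while axon growth and the laying down of the neuronal cytoskeleton are in full course. Neurons that release glutamate and neurons that release GABA are told apart by the enzymes and vesicular transporters for each transmitter.

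Library depth ranged from 12356231 to 29154395 reads in genes, with 15309398 and 22381513 in mutant brains, against 18747051 and 23090631 in control brains. Values are the authors' normalized signal per gene, in which 1 read was worth 0.0343 to 0.0751 units, so 3 reads, the most that a count of 0 allows, correspond to 0.103 to 0.225 units, which covers counting error only. Xist itself had a signal of 3.62 and 4.15 in mutant brains, against 666 and 683 in control brains. Its log2 fold change was -7.27, with an adjusted p of 1.5e-08 by limma. In spleen it had 117 and 51.2 in mutant spleens, against 1205 and 1121 in control spleens (limma adjusted p = 0.136, DESeq2 adjusted p = 3.8e-14). In liver it had 178 and 257 in mutant livers, against 594 and 730.4 in control livers (log2 fold change -1.62, limma adjusted p = 0.454, DESeq2 adjusted p = 8.9e-05). In fibroblasts it had 11.0, 13.5 and 2.33 in mutant fibroblasts, against 141, 98.2 and 70.5 in control fibroblasts (log2 fold change -3.70, limma adjusted p = 0.9997, DESeq2 adjusted p = 3.0e-05). Every mutant library was below every control library of its tissue, but Xist was above the floor in every mutant library, with its highest mutant signals in spleens and livers. Liver differences below are those of libraries labelled as homozygous deletion that still held Xist.

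Brain control 1 stood apart from the other 3 brain libraries in markers of brain regions. Hoxb3, a gene of the hindbrain, had a signal of 12.5 and 19.5 in mutant brains, against 0.492 and 22.9 in control brains. En2, a gene of the midbrain-hindbrain boundary, had 23.6 and 19.5 in mutant brains, against 6.28 and 27.99 in control brains. Over the 8 midbrain and hindbrain markers the summed signal was 85.1 and 94.5 in mutant brains, against 27.9 and 110.2 in control brains. Hoxb4 was listed at 0 in control 1. Over the 7 choroid plexus markers the sum was 1069 and 695 in mutant brains, against 159 and 822 in control brains. Over the 7 forebrain markers the order was the opposite, with 323 and 344 in mutant brains, against 573 and 286 in control brains. Results in brain are therefore also given without control 1, which leaves 1 control library that is assumed to vary like the mutant pair. The part of these region markers in the members' differences was not tested.

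In spleen, mutant 1 and control 1 stood apart. Mutant 1 had a read in 32381 genes, against 25166 to 26940 genes in the other 3 spleen libraries, and it was the 1 spleen library with a read in all 35 members. Control 1 had the highest sum over the 7 erythroid markers, with 17182 and 21659 in mutant spleens, against 38641 and 20242 in control spleens. The sign counts and medians in spleen are therefore also given without each of them.

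All 35 genes were read well above the floor in every brain library. Per kilobase of exon, Tubb3, the neuronal beta-tubulin, was the highest member, with a mean signal per kilobase of 1089 in mutant and 1165 in control brains. Gap43, a growth cone protein of extending axons, followed with 438 in mutant and 454 in control brains. Stmn3, which binds tubulin in neurons, had 309 in mutant and 337 in control brains. Mapt, which encodes the microtubule protein tau, had 265 in mutant and 284 in control brains. The first 14 places in this order were held by the same genes in the same order in mutant and control brains. The low end held Homer1, with a signal per kilobase of 5.58 in mutant and 5.87 in control brains, and Nefm, with 7.95 in mutant and 7.14 in control brains. Genes of microtubules and axon growth thus held the first places of the newborn order, Stmn2 and Map2 following these 4, while the neurofilament genes Nefl and Nefm were in places 9 and 34 in control brains. Slc17a7, the vesicular glutamate transporter of forebrain neurons, had 6.78 in mutant and 11.98 in control brains, and was in place 34 in mutant brains and place 31 in control brains.

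**Figure D1:**
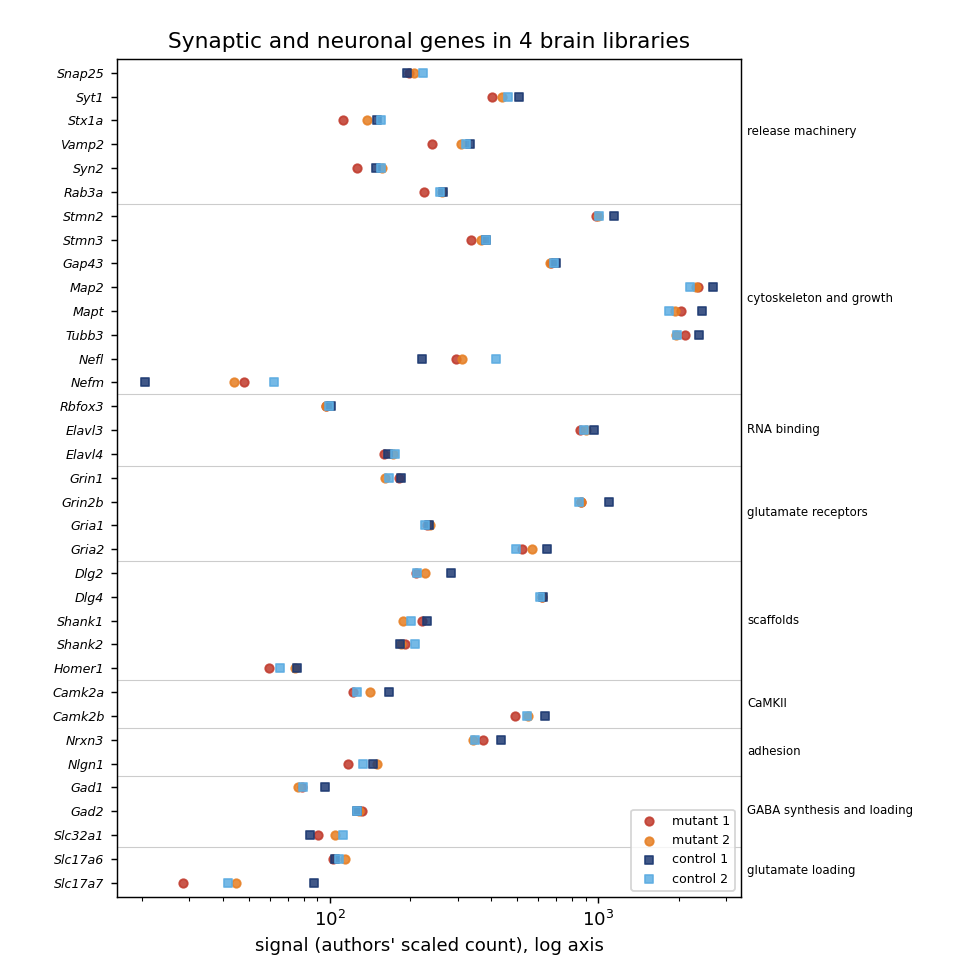
Normalized signal (log axis) of the 35 genes in each brain library, with 2 mutant and 2 control libraries as separate points, grouped by role. Points of one gene lie close together for most members, and Slc17a7, Nefm and Nefl show the widest spread, with control 1 at one end for each.

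None of the 35 genes passed the test between mutant and control brains. By limma, with adjustment over all 16909 tested genes, 0 members were called, beside 4 of all genes, or 0.0237%. The other tools also called none of the members, edgeR's quasi-likelihood test on the recovered reads calling 4 genes (0.0237%) and DESeq2 41 genes (0.242%). At an unadjusted p under 0.05 there were 2 members, Stx1a and Slc17a7, beside 4.07% of all tested genes. The adjusted p was 1 for every member. The 95% interval of the log2 fold change lay within ±1 for 33 of 35 members, and within ±0.5 for 30, so a change of 1 on the log2 scale was outside the interval for all but Nefm and Slc17a7.

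The signs were uneven. The log2 fold change was below 0 for 29 of 35 members, against 53.9% of all tested genes, and the median over the members was -0.077, beside -0.014 over all tested genes. Both mutant libraries lay below both control libraries for 8 members, beside 16.3% of all genes, and above them for 1, beside 13.8% of all genes. Control 1 was the highest of the 4 brain libraries for 23 members (65.7%), beside 29.7% of all tested genes. Mutant 1 was the lowest for 16 members (45.7%), beside 30.6% of all tested genes. Without control 1 the fold change was below 0 for 21 members, beside 52.2% of all tested genes, and above 0 for 14, with a median of -0.026. Limma then called 0 members and 6 genes (0.0356%). All 35 genes together took 1.61% of the library signal in each mutant brain, against 1.78% and 1.62% in control brains. In these bulk samples, a difference in the number of neurons and a difference in RNA per neuron cannot be told apart.

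**Figure D2:**
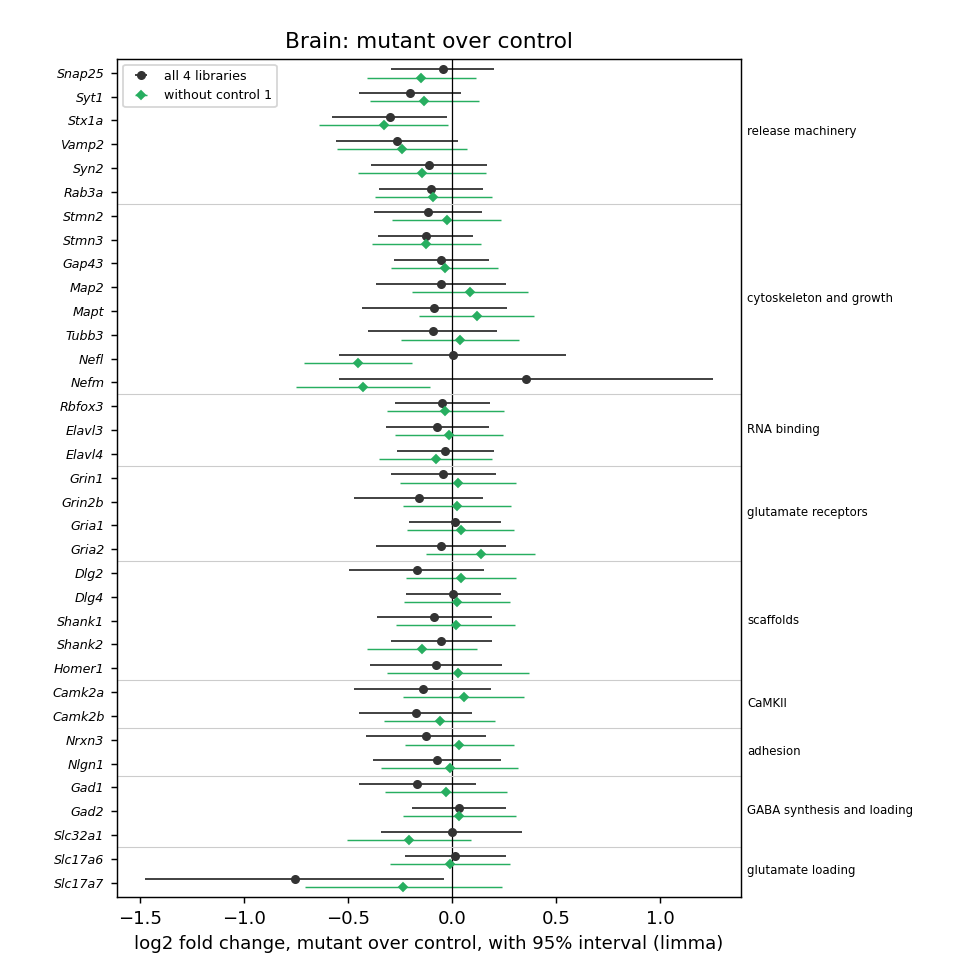
Log2 fold change, mutant over control brain, of each of the 35 genes with its 95% interval, with all 4 libraries and without control 1. With all libraries the intervals of Stx1a and Slc17a7 exclude 0, without control 1 those of Stx1a, Nefl and Nefm do, and several genes just below 0 lie at or above 0 once control 1 is left out.

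All 6 release genes had a fold change below 0, and it stayed below 0 for all 6 without control 1. Their median was -0.16 with all libraries and -0.15 without control 1. With another library left out, the fold change rose above 0 for Snap25, Rab3a and Syn2, to at most 0.059, 0.0083 and 0.040. The 6 genes summed to 1305 and 1511 in mutant brains, against 1597 and 1578 in control brains, so mutant 1 was the lowest. None was called. Stx1a is a syntaxin of the presynaptic membrane that takes part in vesicle fusion (ENSMUSG00000007207, GRCm38 chr5:135023482-135051100, plus strand). It had a signal of 112 and 138 in mutant brains, against 149.9 and 156 in control brains. Both mutant brains were below both control brains (log2 fold change -0.30, SE 0.12, 95% interval -0.57 to -0.022, limma unadjusted p = 0.0371, adjusted p = 1). Vamp2, the vesicle partner of Stx1a in the fusion complex, had 241 and 308 in mutant brains, against 334 and 322 in control brains. Syt1, the calcium sensor of fast release, had 402 and 439 in mutant brains, against 507 and 461 in control brains. For both genes the groups did not overlap, with log2 fold changes of -0.27 (SE 0.13) and -0.20 (SE 0.11), and mutant 1 was the lowest library. Snap25, the third member of the fusion complex, had 197 and 206 in mutant brains, against 194 and 224 in control brains. Rab3a, a small GTPase on synaptic vesicles, had 225 and 263 in mutant brains, against 264 and 259 in control brains. Syn2, a synapsin that tethers vesicles, had 127 and 157 in mutant brains, against 149 and 156 in control brains. In these 3 genes the groups overlapped.

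The cytoskeletal and growth genes carried the highest signals of the members. Map2, which marks dendrites, had 2359.7 and 2312 in mutant brains, against 2676 and 2199.6 in control brains. Mapt had 2041 and 1944 in mutant brains, against 2436 and 1834 in control brains. Tubb3 had 2120.0 and 1948 in mutant brains, against 2374 and 1979.5 in control brains. In all 3 genes control 1 was the highest library and control 2 lay close to the mutants, so the groups overlapped, and their log2 fold changes of -0.055, -0.086 and -0.093 became 0.087, 0.12 and 0.038 without control 1. Stmn2, a tubulin-binding protein of growing axons, had 985 and 1004 in mutant brains, against 1146 and 1012 in control brains. Stmn3 had 337 and 366 in mutant brains, against 384 and 382 in control brains. Gap43 had 669.7 and 665 in mutant brains, against 699 and 684 in control brains. The mutant brains were below the control brains for these 3 genes, by less than the standard error for Gap43 (log2 fold change -0.051, SE 0.10, 95% interval -0.28 to 0.18). Without control 1 the log2 fold change of Stmn2 went from -0.12 to -0.026, that of Stmn3 from -0.13 to -0.12 and that of Gap43 to -0.036.

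In both neurofilament genes the 2 controls lay farther apart than the 2 mutants. Nefl (ENSMUSG00000022055, GRCm38 chr14:68083863-68089095, plus strand) and Nefm (ENSMUSG00000022054, GRCm38 chr14:68082590-68124846, minus strand) are neighbours that encode the light and the medium subunit. Nefl had 296 and 312 in mutant brains, against 221 and 416 in control brains. Nefm had 47.9 and 44.1 in mutant brains, against 20.6 and 61.99 in control brains. Both mutants lay between the 2 controls in each gene, and control 1 was the lowest. Nefm had a log2 fold change of 0.36 (SE 0.39) with all libraries and -0.43 without control 1, while without control 2 it was 1.14, with a limma adjusted p of 0.00464. Nefl had 0.0036 (SE 0.24), and -0.45 without control 1. Without control 1 the unadjusted 95% intervals of both genes lay below 0, on a single control library. The fit without control 2 sets the mutants against control 1 alone, the library that stood apart, and takes its spread from the mutant pair. These genes share 1108 exon bases on opposite strands in the annotation, and no source used here says whether reads were counted by strand, so their reads cannot be fully told apart.

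The neuronal RNA-binding proteins were among the steadiest members. Rbfox3, known as the neuronal marker NeuN, had 96.96 and 96.95 in mutant brains, against 101 and 99.2 in control brains. Elavl3 had 859 and 906 in mutant brains, against 963 and 891 in control brains. Elavl4 had 159.7 and 173 in mutant brains, against 164 and 175 in control brains. The 3 log2 fold changes lay between -0.071 and -0.032, each smaller in size than its standard error of 0.10 to 0.11. Rbfox3 was nonetheless lower in both mutant brains than in both control brains, a gap that its interval of -0.28 to 0.18 does not separate from 0.

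On the receiving side, Grin1, the shared subunit of NMDA-type glutamate receptors, had 181 and 160.5 in mutant brains, against 184 and 167 in control brains. Grin2b, the NMDA receptor subunit that prevails early in life, had 867 and 867 in mutant brains, against 1100.1 and 853 in control brains. Both genes overlapped between the groups, and for Grin2b control 1 alone lay above the other 3 libraries. Gria1, an AMPA receptor subunit, had 230.0 and 236 in mutant brains, against 235 and 227 in control brains. Gria2, the subunit that limits calcium entry, had 523 and 569 in mutant brains, against 644 and 496 in control brains. The log2 fold changes of the 4 receptor genes ran from -0.16 to 0.014, and without control 1 none was below 0. Part of the Grin1 exons overlaps an antisense transcript (1307 bases).

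Among the scaffolds, Dlg4, which encodes PSD-95, had 618 and 621 in mutant brains, against 623 and 609.7 in control brains. Its log2 fold change was 0.0070, with an interval of -0.22 to 0.23. Dlg2, a related scaffold, had 209.9 and 226 in mutant brains, against 284 and 211 in control brains. Control 1 lay above the rest. Shank1, a scaffold below the receptor layer, had 220.3 and 188 in mutant brains, against 231 and 201 in control brains. Shank2 had 192 and 184 in mutant brains, against 182 and 208 in control brains. Homer1, which links receptors to calcium stores, had 59.5 and 74.3 in mutant brains, against 75.5 and 65.2 in control brains. In all 5 scaffolds the groups overlapped. Camk2a and Camk2b encode subunits of the calcium-dependent kinase of the postsynaptic density. Camk2a had 122 and 142 in mutant brains, against 166 and 127 in control brains. Camk2b had 493 and 549 in mutant brains, against 637 and 542 in control brains. Both had control 1 as the highest library, and their log2 fold changes of -0.14 and -0.18 were 0.056 and -0.059 without it.

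The adhesion genes Nrxn3, a presynaptic neurexin, and Nlgn1, a postsynaptic neuroligin that binds neurexins, overlapped between the groups. Nrxn3 had 375 and 343 in mutant brains, against 436 and 349.6 in control brains. Nlgn1 had 117 and 150.5 in mutant brains, against 146 and 134 in control brains.

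The transmitter genes had no common direction. Gad1, one of the enzymes that make GABA, had 79.2 and 76.4 in mutant brains, against 96.2 and 79.4 in control brains. Gad2, the other, had 132 and 129 in mutant brains, against 127 and 127 in control brains. Gad1 was below and Gad2 above the control brains in both mutants, with log2 fold changes of -0.17 (SE 0.12) and 0.035 (SE 0.099), and neither interval excluded 0. Slc32a1, the vesicular transporter of GABA, had 90.95 and 104 in mutant brains, against 84.5 and 112 in control brains. Slc17a6, the vesicular glutamate transporter of subcortical neurons, had 103 and 114 in mutant brains, against 105 and 109 in control brains. In both transporters the groups overlapped.

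Slc17a7 (ENSMUSG00000070570, GRCm38 chr7:45163949-45176142, plus strand) had the largest fold change of the 35, and it rested on control 1. Its signal was 28.4 and 44.7 in mutant brains, against 87.2 and 42.01 in control brains (log2 fold change -0.76, SE 0.32, 95% interval -1.47 to -0.038, limma unadjusted p = 0.0411, adjusted p = 1). Control 1 had the highest signal, control 2 lay just below mutant 2, and mutant 1 was the lowest. Without control 1 the log2 fold change was -0.23, and without control 2, against control 1 alone, it was -1.28, with a limma adjusted p of 0.0161. Of the forebrain markers, Tbr1, a transcription factor of early cortical neurons, had 61.2 and 51.4 in mutant brains, against 119 and 37.5 in control brains. Neurod6, a factor of forebrain excitatory neurons, had 118 and 124 in mutant brains, against 255 and 104 in control brains. The part of these markers in the Slc17a7 values was not tested.

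**Figure D3:**
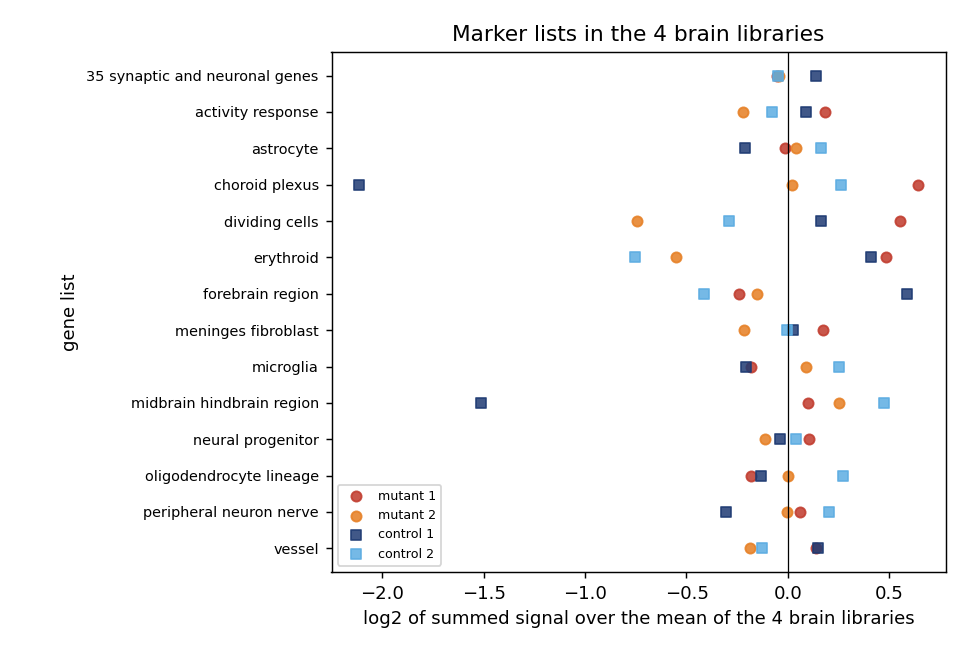
Log2 of the summed normalized signal of each marker list, and of the 35 genes, over its mean in the 4 brain libraries (circles mutant, squares control). Control 1 has the lowest midbrain-hindbrain sum (27.9) and choroid plexus sum (159) and the highest forebrain sum (573), and mutant 1 has the highest sum over dividing cell markers (214).

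Other genes of the same pathways gave no called difference either. Of 24 further release genes, 0 were called by limma in either direction and 16 had a fold change below 0, with a median of -0.062. Without control 1, 18 were below 0 with a median of -0.071. The mutant brains were below the control brains for 11 of the 24, beside 16.3% of all genes, and above for 2, beside 13.8%. Syp, a vesicle membrane protein, was one of those 2, with a signal of 604 and 655 in mutant brains, against 482 and 551 in control brains. Of 41 further postsynaptic genes, 0 were called, 30 were below 0 with a median of -0.0996, and the groups were separate for 12 below, beside 16.3% of all genes, and 1 above, beside 13.8%. Without control 1, 27 were below 0 with a median of -0.065. Grm5, a metabotropic glutamate receptor, had 228 and 298 in mutant brains, against 302 and 298 in control brains. Dlgap4, a scaffold partner of PSD-95, had 402 and 404 in mutant brains, against 464 and 421 in control brains.

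Of 11 further adhesion genes, 8 were below 0 with a median of -0.029, and without control 1, 5 were, with a median of 0.012. Of 23 further cytoskeletal genes, 12 were below 0 with a median of -0.015, and without control 1, 11 were, with a median of 0.011. Tuba1a, an alpha-tubulin of growing neurons, had 2513 and 3173 in mutant brains, against 4099 and 3049 in control brains, with control 1 the highest. Of 18 neuronal regulators, 12 were below 0 with all libraries and 6 without control 1, where the median was 0.058 in place of -0.092. Bcl11b, a transcription factor of deep-layer cortical and striatal neurons, had 284 and 312 in mutant brains, against 411 and 307 in control brains. Of 24 tested genes of transmitter subtypes, 17 were below 0 with a median of -0.093, and without control 1, again 17, with a median of -0.11. The log2 fold changes of this list ran from -0.53 to 1.36. The highest, named for its size, was that of Slc6a5, the glycine transporter of hindbrain and spinal neurons, which had 17.9 and 23.8 in mutant brains, against 2.13 and 25.2 in control brains. It was -0.28 without control 1. Of 15 ion channel genes, 9 were below 0 with a median of -0.026, and without control 1, 12 were, with a median of -0.074. No gene of any of these lists was called in brain by limma, edgeR or DESeq2.

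Markers of other brain cells varied between libraries. Over the 8 dividing cell markers the summed signal was 214 and 87.1 in mutant brains, against 163 and 119 in control brains. The 12 neural progenitor markers summed to 889 and 765 in mutant brains, against 804 and 849 in control brains. Neither list of these 2 separated the groups. The 9 astrocyte markers summed to 1844 and 1920 in mutant brains, against 1612 and 2086 in control brains. The 7 erythroid markers, which report blood, summed to 689 and 337 in mutant brains, against 654 and 292 in control brains. Mutant 1, the lowest library for most release genes, had the highest sum of dividing cell markers. The part of cell composition in the release genes was not tested.

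Outside the brain the 35 genes were lower but seldom absent. In 11 of them every library of the other tissues was below a signal of 2, and in 4 below 1, while 20 passed the filter in spleen, 14 in liver and 15 in fibroblasts. The lowest brain library was at least 10 times the highest library of any other tissue for 30 of 35 members, and at least 100 times for 9. Each tissue was normalized in its own table, so these ratios set levels side by side without a test. The exceptions were Vamp2 (3.96 times), Dlg4 (5.58), Shank2 (4.10), Homer1 (1.51) and Camk2a (6.06). Elavl3 had the widest ratio, 762. Its control signal averaged 927 ± 51.2 in brain and 0.232 ± 0.159 in spleen (SD, n = 2 each). Rbfox3 and Slc32a1 had 0 reads in all 6 fibroblast libraries, which allows a signal of up to 0.134 to 0.154 in each.

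Several members had signal in fibroblasts. Dlg4 had 109, 106 and 102 in mutant fibroblasts, against 81.2, 103 and 109 in control fibroblasts. The groups overlapped. Stmn2 had 23.8, 31.7 and 48.7 in mutant fibroblasts, against 40.1, 46 and 33.2 in control fibroblasts. Map2 had 31.7, 42.8 and 73.7 in mutant fibroblasts, against 31.6, 44.5 and 86.9 in control fibroblasts. Tubb3 had 21.5, 3.90 and 18.6 in mutant fibroblasts, against 10.9, 16.6 and 44.3 in control fibroblasts. Tubb3 varied most of these 4 genes. Homer1 had 23.9, 26.8 and 33.97 in mutant fibroblasts, against 32.3, 39.3 and 30.4 in control fibroblasts, again with overlap. In spleen, Vamp2 had 60.99 and 52.6 in mutant spleens, against 57.8 and 58.4 in control spleens, above its fibroblast and liver range of 16.1 to 28.4. In liver, Shank2 had 6.61 and 16.2 in mutant livers, against 11.6 and 44.5 in control livers, with control 2 well above the other 3 libraries.

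**Figure D4:**
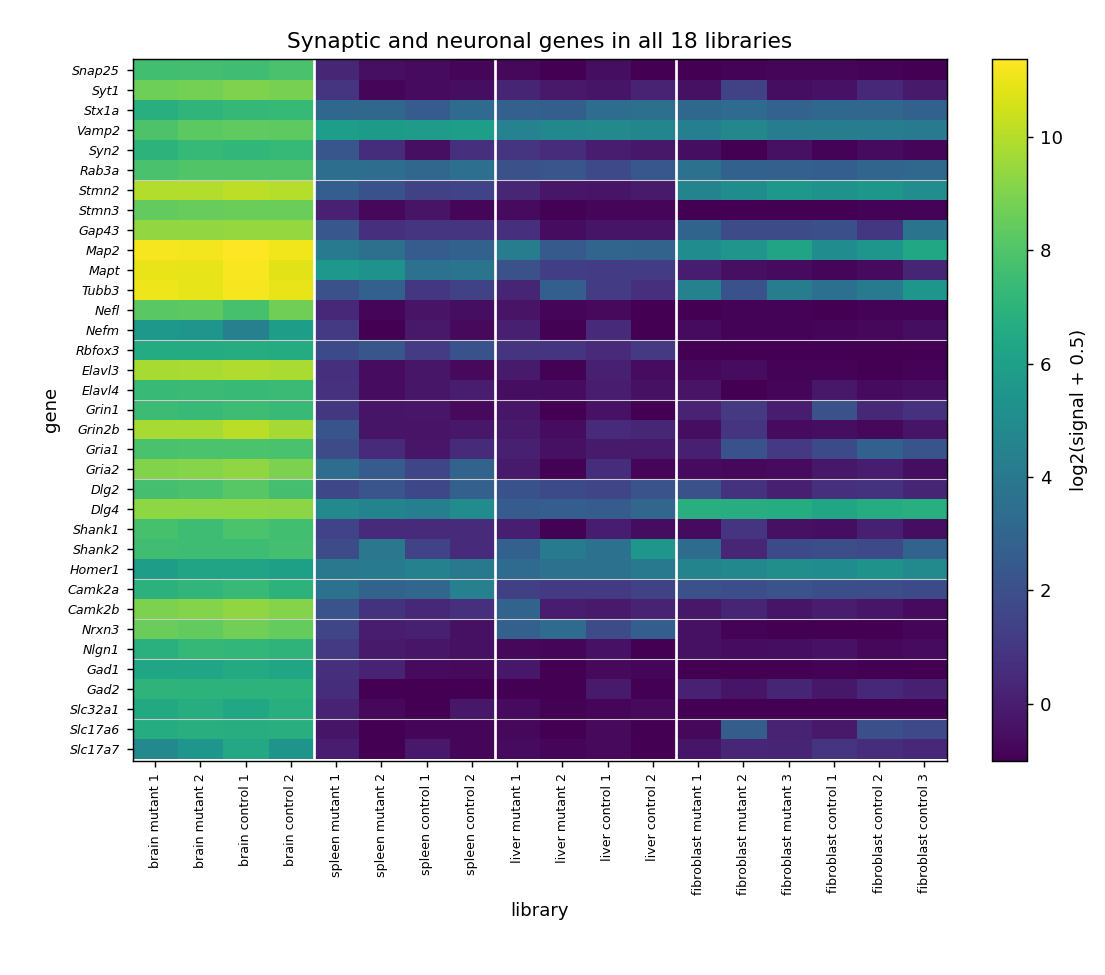
Log2(signal + 0.5), by colour, of the 35 genes (rows, by role) in all 18 libraries (columns, by tissue, mutant left of control). Rows are highest in the 4 brain columns, and Vamp2, Dlg4, Homer1, Stx1a, Rab3a, Map2 and Camk2a also carry signal in the other tissues.

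Promoters of members that differ in this restriction were read from RefSeq. From the promoter table on GRCm38.p6, 38 windows of 23 of the 35 members were used. No window was used for Snap25, Vamp2, Stmn2, Gap43, Mapt, Nefl, Nefm, Grin2b, Gria1, Camk2a, Shank1 or Shank2. The first pair below is Elavl3 and Gad1, which had a signal of at most 1.13 in any library outside the brain, and the second is Homer1 and Stx1a, which were read in all 4 tissues. Each line gives the 250 bases before the start, 5′ to 3′ on the gene's strand, and capitals mark matches on either strand to the TATA box (TATAAA), the GC box (GGGCGG) and the cAMP response half-site (TGACG), with matches on the opposite strand shown as their reverse complement.
Elavl3, GRCm38.p6 chr9:22052024-22052273, minus strand: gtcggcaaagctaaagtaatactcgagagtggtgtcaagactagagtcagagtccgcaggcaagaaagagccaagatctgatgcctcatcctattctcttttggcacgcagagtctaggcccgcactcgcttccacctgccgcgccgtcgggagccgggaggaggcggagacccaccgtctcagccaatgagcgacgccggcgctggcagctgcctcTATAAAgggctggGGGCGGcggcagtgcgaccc
Gad1, GRCm38.p6 chr2:70561879-70562128, plus strand: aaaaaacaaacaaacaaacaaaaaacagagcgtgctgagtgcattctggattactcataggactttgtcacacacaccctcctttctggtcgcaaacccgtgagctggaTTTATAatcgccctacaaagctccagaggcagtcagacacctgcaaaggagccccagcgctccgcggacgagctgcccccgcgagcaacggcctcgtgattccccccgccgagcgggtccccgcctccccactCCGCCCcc
Homer1, GRCm38.p6 chr13:93303507-93303756, plus strand: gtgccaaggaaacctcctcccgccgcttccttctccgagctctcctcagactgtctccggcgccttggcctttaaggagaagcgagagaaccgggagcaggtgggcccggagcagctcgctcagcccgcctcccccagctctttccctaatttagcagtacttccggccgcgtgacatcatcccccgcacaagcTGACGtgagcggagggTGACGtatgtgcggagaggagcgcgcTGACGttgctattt
Stx1a, GRCm38.p6 chr5:135023232-135023481, plus strand: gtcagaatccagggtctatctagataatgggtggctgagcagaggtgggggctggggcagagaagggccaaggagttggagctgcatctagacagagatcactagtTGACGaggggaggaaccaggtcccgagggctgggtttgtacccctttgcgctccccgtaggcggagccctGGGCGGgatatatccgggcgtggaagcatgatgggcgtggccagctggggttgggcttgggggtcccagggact
Elavl3 has a TATAAA match 33 bases before its start and a GC box at 20. Gad1 has a TATAAA match on the opposite strand at 141 and a GC box on the opposite strand at 8. Homer1 has 3 TGACG matches, at 56, 40 and 14 bases before its start, and no GC box in these bases. Stx1a has a TGACG match at 144 and a GC box at 74.

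The same letters were searched on both strands in all 32851 windows of 300 bases. TGACG, the half-site of the cAMP response element, was in 26.3% of the members' windows, beside 20.8% of all windows. GGGCGG, the GC box, was in 36.8%, beside 35.7%, and TATAAA was in 7.89%, beside 13.6%. Of the 23 members with a window, TATAAA was in 3, Dlg2, Elavl3 and Gad1. TGACG was in 8, Dlg4, Homer1, Rab3a and Stx1a, and also Elavl4, Gad2, Grin1 and Slc17a6. Elavl4 and Gad2 had at most 1.20 and 1.05 in any library outside the brain. The printed pairs thus do not show how these letters go with the restriction, which was not tested. The core of RE1, the element bound by the neuronal gene repressor REST, was searched in a strict form and in a relaxed form that frees a base in each arm and contains the strict one. The strict form was in 0 of the members' windows and 0.0365% of all windows, and the relaxed form was in 2.63%, beside 0.0822%. The single match was in Slc17a6, on the opposite strand from 35 bases after its start.
Slc17a6, GRCm38.p6 chr7:51621850-51621879, plus strand: ttccttagcttcctCTGTCCGTGGTCCTGa
Capitals mark that match. The median GC content was 56.8% in the members' windows, beside 52.7% in all windows. A match is a description of letters, and a missing one says only that these letters are not in the window.

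In spleen, 20 of the 35 genes passed the filter on low signal, and their signals were a small part of those in brain. By limma 0 members were called, beside 0 of 16578 tested genes (0.0%). Unadjusted p was under 0.05 for 5 members, beside 6.27% of all genes. The log2 fold change was below 0 for 4 of 20, beside 56.5% of all genes, and above 0 for 16, with a median of 0.71, beside -0.071 over all tested genes. Syn2, Grin2b, Gria1, Shank1 and Camk2b had control means of 0.317 to 0.980, under the filter, and passed it only through the mutant libraries. Their higher mutant mean was thus fixed by the filter, and they are included in these counts and medians. Without mutant 1, 11 of the 16 members still tested were above 0, with a median of 0.23, and 51.6% of all genes were below 0. Without control 1, 13 of 20 were above 0, with a median of 0.57, and 55.8% of all genes were below 0. Both mutant spleens were above both control spleens for 7 members, beside 18.3% of all genes, and below for none, beside 21.9%. Gria1 and Camk2b, which passed the filter only through the mutant libraries, are among these 7. Mutant 1 was the highest library for 11 of the 20 (55%), beside 21.2% of all tested genes, and control 1 was the lowest for 15 (75%), beside 33.6%. Syn2, Grin2b, Gria1, Shank1 and Camk2b, which passed the filter only through the mutant libraries, are among these 11 and among these 15.

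Mapt (ENSMUSG00000018411, GRCm38 chr11:104231390-104332090, plus strand) had the smallest p of them. Its signal was 47.9 and 39.6 in mutant spleens, against 12.1 and 12.9 in control spleens (log2 fold change 1.76, SE 0.28, 95% interval 1.10 to 2.43). Both mutant spleens were more than 3 times either control spleen. The limma adjusted p was 0.208 and that of edgeR's quasi-likelihood test on the recovered reads was 0.300, while DESeq2, which called 182 genes (1.1%), gave 2.2e-04. Leaving out each spleen library in turn, the limma adjusted p of Mapt was between 0.0592 and 0.505.

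Map2 had 17.1 and 11.4 in mutant spleens, against 5.58 and 6.62 in control spleens. Tubb3 had 3.68 and 6.38 in mutant spleens, against 1.52 and 2.09 in control spleens. Stmn2 had 6.01 and 3.86 in mutant spleens, against 2.21 and 2.33 in control spleens. These 3 cytoskeletal genes had separate groups and log2 fold changes of 1.14, 1.23 and 0.95, with limma adjusted p of 0.700, 0.751 and 0.779. Without mutant 1 these were 0.86, 1.59 and 0.66, and that of Mapt was 1.63. Shank2 had 3.08 and 14.6 in mutant spleens, against 2.41 and 0.954 in control spleens, with mutant 2 far above the rest. Without mutant 1 its limma adjusted p was 0.000676, on mutant 2 alone, with the spread taken from the control pair. Grin2b had 4.13 and 0.322 in mutant spleens, against 0.276 and 0.358 in control spleens, so its signal was in mutant 1. Without mutant 2 its limma adjusted p was 0.0307, which sets that 1 library against the control pair and takes the spread from the pair. Of the 4 release genes tested, Syn2 had a log2 fold change of 1.39 (SE 0.69) with overlapping groups, while Vamp2 had -0.036, Rab3a 0.15 and Stx1a 0.17.

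Markers of other cells also differed between the spleens. Over the 9 peripheral neuron and nerve markers the summed signal was 16.3 and 20.1 in mutant spleens, against 19.2 and 26.4 in control spleens. These genes had no common direction, with 2 of the 3 tested below 0 and 1 above. Ngfr, the largest part of the control sums, had 6.69 and 3.16 in mutant spleens, against 12.0 and 16.8 in control spleens. Chga had 5.11 and 15.1 in mutant spleens, against 5.24 and 5.79 in control spleens. Over the 8 vessel markers it was 1576 and 1269 in mutant spleens, against 786 and 1174 in control spleens, and 7 of the 8 had both mutants above both controls. All 6 fibroblast markers had both mutants above both controls, with sums of 4237 and 2441 in mutant spleens, against 1655 and 1939 in control spleens. Of the 8 dividing cell markers, 6 had both mutants below both controls, with sums of 2611 and 2266 in mutant spleens, against 7959 and 2842 in control spleens. The part of these markers in the Mapt values was not tested.

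**Figure D5:**
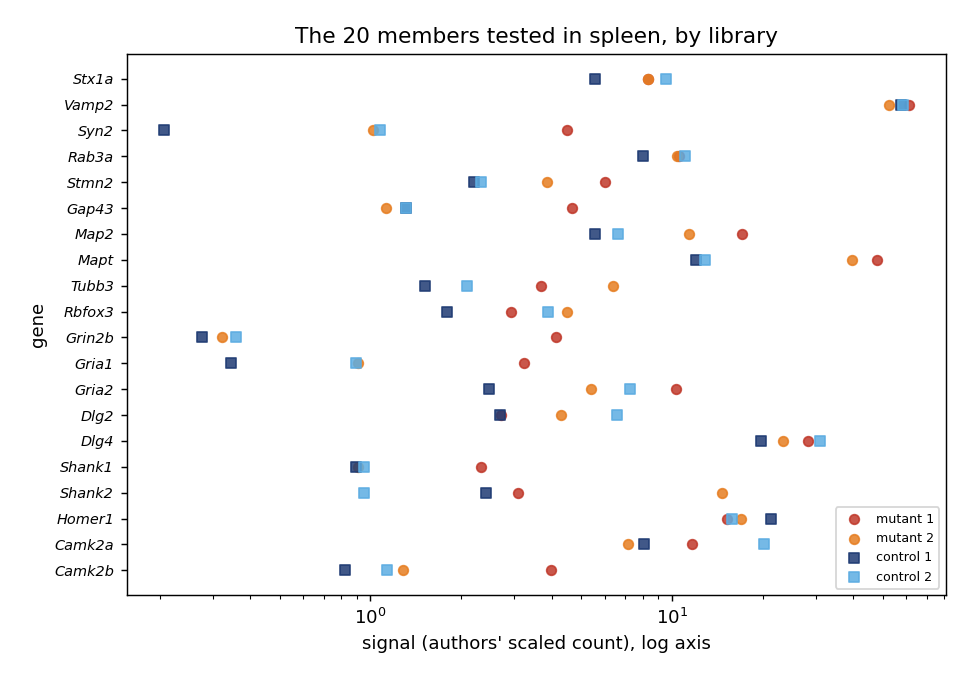
Normalized signal (log axis) of the 20 tested members in each spleen library (mutant and control points). Mapt lies at 47.9 and 39.6 in mutant spleens, against 12.1 and 12.9 in control spleens, and mutant 1 is the highest point for 11 of the 20 genes. Syn2, Grin2b, Gria1, Shank1 and Camk2b, which passed the filter only through the mutant libraries, are among these 11.

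In liver, 14 members were tested and 0 were called by limma, beside 0 of 15075 genes (0.0%), with 1 member at an unadjusted p under 0.05, beside 6.67% of all genes. edgeR called 0 genes (0.0%), and DESeq2 called 211 genes (1.4%) and no member. Stx1a was that member, with a signal of 6.52 and 6.31 in mutant livers, against 10.4 and 11.2 in control livers. Both mutant livers were below both control livers (log2 fold change -0.71, SE 0.21, 95% interval -1.26 to -0.16, limma adjusted p = 0.675). Mapt and Nrxn3 were the 2 members with both mutants above both controls, beside 23.5% of all genes, and Stx1a the 1 below, beside 13.1%. The log2 fold change was below 0 for 6 of 14, beside 44.1% of all genes. The median over the 14 was 0.084, beside 0.046 over all tested genes. Camk2b had 7.09 and 0.480 in mutant livers, against 0.445 and 0.643 in control livers, so mutant 1 alone carried its signal. Its control mean of 0.544 was under the filter, which it passed only through mutant 1. Its higher mutant mean was thus fixed by the filter, and it is included in the sign count and median.

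In fibroblasts, 15 members were tested and 0 were called by limma, beside 0 of 13077 genes (0.0%), with no member at an unadjusted p under 0.05, beside 0.971% of all genes. edgeR called 0 genes (0.0%), and DESeq2 called 3 genes (0.0229%) and no member. The log2 fold change was below 0 for 9 of 15, beside 51.1% of all genes. The median over the 15 was -0.095, beside -0.0032 over all tested genes. Grin1 had a mutant mean of 0.899, under the filter, and passed it only through the control libraries. Its lower mutant mean was thus fixed by the filter, and it is included in this count and median. Camk2a was the 1 member with separate groups, above the controls, beside 2.07% of all genes above and 1.65% below. It had 3.76, 3.49 and 4.01 in mutant fibroblasts, against 3.37, 3.29 and 2.94 in control fibroblasts. Its log2 fold change was 0.20, with an interval of -0.20 to 0.60. Gria1 had the largest fold change, -1.19 (95% interval -2.54 to 0.15), from 0.557, 3.90 and 1.55 in mutant fibroblasts, against 2.92, 6.68 and 4.14 in control fibroblasts, where control 2 was the highest and mutant 1 the lowest.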

How the data were processed

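Libraries were made from total RNA with ribosomal RNA depleted, per the labels' protocols. The deposited tables, 1 per tissue, hold the authors' normalized signal per gene, whose values fall on whole multiples of what 1 read is worth. HTSeq 0.6.1 and edgeR, and the GRCm38 build, are named in the submitters' processing notes. The aligner and strand setting are not stated in any source used here. Whole reads were recovered from the steps of the deposited signal: 100% of values came out whole within 0.05 of a read. Of 46078 identifiers, 45229 matched GENCODE M21, and the 849 others took 0.179% or less of the reads.

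Each table was fitted alone with limma 3.58.1 (R 4.3.3, trend) on log2(signal + 0.5), for genes with a mean of at least 1, mutant minus control, with Benjamini-Hochberg adjustment at 0.05. A fold change is on that log2 scale, which understates the change of low genes. Called means adjusted p under 0.05. The procedure was tested on simulated data. Replicates of a group differed by more than sampling noise (chi-square per degree of freedom 8.87 to 166), so each counts once. Alternatives were other pseudocounts, no filter, median-ratio scaling, a replicate block, edgeR 4.0.16 and DESeq2 1.42.0 on the recovered reads, and each library left out. edgeR called 4 genes in brain and 0 in each other tissue.

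The members and lists were chosen with earlier results of these data known. Most genes named outside the 35 come from the 3 with the highest mean brain signal of each list, and not all of those are given. Hoxb3, Hoxb4, En2, Tbr1, Neurod6, Lhx2, Six3 and Slc6a5 were named after their values were seen.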

Additional observations from a re-analysis of the deposited data

Results flagged for a closer look

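Stmn2 had opposite separation in 2 tissues. Both mutant brains were below both control brains (log2 fold change -0.12), while both mutant spleens were above both control spleens (0.95), so the brain value minus the spleen value was -1.06. Of all tested genes, 16.3% had that separation in brain and 18.3% had that in spleen. The brain fold change rested largely on control 1, and was -0.026 without it. The difference was not tested, and neither fold change passed the limma test. The signal of Stmn2 was 985 and 1004 in mutant brains, against 1146 and 1012 in control brains. In spleen it was 6.01 and 3.86 in mutant spleens, against 2.21 and 2.33 in control spleens.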

How the results depend on the processing

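With 2 or 3 libraries a group, even large differences could go uncalled. Outside brain, limma did not call Xist, at log2 fold changes of -3.90 in spleen, -1.62 in liver and -3.70 in fibroblasts. A count of 0 members called in those tissues therefore says little. Other pseudocounts called no member in any tissue. With no filter on low values, 13 genes were called in brain, 22 in spleen and 11 in liver. DESeq2 called 41 genes in brain, 182 in spleen, 211 in liver and 3 in fibroblasts, and 1 member, Mapt in spleen. The spleen median over the members was 1.02 by edgeR and 1.02 by DESeq2. With the replicate number as a block, spleen had 356 genes called and 2 members (Mapt, adjusted p = 0.000405, and Shank2, adjusted p = 0.00635, by limma), liver had 60 genes called and 0 members, brain had 4 and 0, and fibroblasts had 0 and 0. Same-numbered libraries had correlated deviations of 0.078 in brain, -0.026 in spleen and 0.58 in liver, and of -0.080, 0.43 and 0.023 in fibroblasts, which with 2 pairs in an organ, and not all above 0.1 in fibroblasts, does not show a pairing. In liver the number 1 libraries did deviate together, with dividing cell sums of 2295 and 1011 in mutant livers, against 2070 and 776 in control livers. Leaving out each library in turn gave 6 to 109 genes and 0 to 2 members called in brain (109 and 2 without control 2), 0 to 177 genes and 0 to 1 members in spleen (170 without mutant 1, 177 without mutant 2), and 0 in liver and fibroblasts. The medians over the members were -0.13 to -0.026 in brain, 0.23 to 0.93 in spleen, -0.20 to 0.34 in liver and -0.25 to 0.026 in fibroblasts. Slc32a1 in brain had a log2 fold change of 0.0018 with median-ratio scaling and 0.0011 by edgeR, and Nefl had -0.055 by edgeR and -0.056 by DESeq2. The cause was not tested. Sign changes when 1 brain library was left out had log2 fold change ranges as follows: Camk2a -0.33 to 0.056, Dlg2 -0.38 to 0.043, Dlg4 -0.0086 to 0.023, Elavl4 -0.089 to 0.025, Gria1 -0.013 to 0.041, Gria2 -0.24 to 0.14, Grin1 -0.13 to 0.046, Grin2b -0.34 to 0.024, Homer1 -0.24 to 0.082, Map2 -0.20 to 0.087, Mapt -0.29 to 0.12, Nefl -0.45 to 0.46, Nefm -0.43 to 1.14, Nlgn1 -0.26 to 0.11, Nrxn3 -0.28 to 0.036, Rab3a -0.21 to 0.0083, Shank1 -0.20 to 0.031, Shank2 -0.14 to 0.042, Slc17a6 -0.057 to 0.088, Slc32a1 -0.21 to 0.20, Snap25 -0.15 to 0.059, Syn2 -0.26 to 0.040, Tubb3 -0.22 to 0.038.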
